A study of Mus musculus with 12 samples.

Results

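The G2 and mitosis genes are 56 mouse genes whose products carry a cell from the end of DNA replication through chromosome condensation, spindle assembly, chromosome segregation and cytokinesis. They were chosen by gene symbol, and all 56 were found among the 33100 gene rows of the deposited count table. All 56 also passed the filter on low counts that left 16831 genes for testing. RNA was measured by bulk sequencing, and the samples are labelled as NK (natural killer) cells, innate lymphocytes that kill tumor cells. Cells were sorted from tumor and from spleen, in mice carrying a conditional knockout of 1 gene (cKO) and in control mice (WT). This gave 4 groups of 3 libraries, namely tumor cKO, tumor WT, spleen cKO and spleen WT. The targeted gene was not analysed here, and the genotype labels were therefore taken as given. The labels name neither the Cre driver that limits the knockout to certain cells nor the tumor model, age or sex of the mice. Whether the 3 libraries of each group are 3 different mice is not stated either, so every p-value below measures the spread between these samples, which may be technical. Library totals ran from 15765906 to 24832976 counts in tumor cKO, 18518070 to 37118494 in tumor WT, 9542329 to 13753737 in spleen cKO and 10496256 to 13105059 in spleen WT, with tumor WT 2 the deepest.

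Most cells of a resting lymphocyte population are out of the cell cycle and hold little RNA of these genes, and dividing cells switch them on together. Their transcription peaks late in the cycle. In many of them it depends on a short promoter sequence, TTTGAA, called the cell cycle genes homology region (CHR). The CHR is bound in quiescent cells by the repressive DREAM complex and in dividing cells by B-MYB and FOXM1 with the MuvB core. A second common element is CCAAT, the site of the activator NF-Y. Mki67 RNA and its protein Ki-67 are widely used markers of cycling cells. In bulk samples, fewer cycling cells and less RNA per cycling cell cannot be told apart, which holds for every level below.

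The promoters below show TTTGAA and CCAAT in members picked because they hold both, which not every member does. Mki67, Top2a, the spindle checkpoint gene Bub1b and the condensin gene Smc2 had the highest mean level per length among members with a single window that holds both. Cenpa was added as the member called lower in tumor cKO, and its window also holds both. Each is 300 bases, from 250 bases before to 50 bases after the annotated start, printed 5′ to 3′ in the direction of the gene. Capitals mark TTTGAA and CCAAT on either strand, so TTCAAA and ATTGG are the same motifs on the opposite strand. The sequences are from RefSeq on build GRCm38.p6. Mki67 lies on the minus strand at chr7:135716330-135716629 and Top2a on the minus strand at chr11:99024140-99024439. Bub1b is on the plus strand at chr2:118597961-118598260, Smc2 on the plus strand at chr4:52438971-52439270, and Cenpa on the plus strand at chr5:30666636-30666935.
Mki67: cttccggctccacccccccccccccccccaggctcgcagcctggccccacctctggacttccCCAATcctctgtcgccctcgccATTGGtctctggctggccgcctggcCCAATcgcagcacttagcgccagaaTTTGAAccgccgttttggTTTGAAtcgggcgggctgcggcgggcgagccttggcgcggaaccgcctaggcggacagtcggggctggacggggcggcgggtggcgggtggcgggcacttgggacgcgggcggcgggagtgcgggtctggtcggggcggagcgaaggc
Top2a: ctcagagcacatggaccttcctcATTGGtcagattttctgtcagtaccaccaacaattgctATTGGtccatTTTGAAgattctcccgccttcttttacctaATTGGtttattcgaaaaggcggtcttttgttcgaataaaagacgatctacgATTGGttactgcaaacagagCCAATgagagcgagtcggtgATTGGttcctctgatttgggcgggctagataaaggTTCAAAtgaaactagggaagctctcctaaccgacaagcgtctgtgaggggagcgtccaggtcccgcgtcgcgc
Bub1b: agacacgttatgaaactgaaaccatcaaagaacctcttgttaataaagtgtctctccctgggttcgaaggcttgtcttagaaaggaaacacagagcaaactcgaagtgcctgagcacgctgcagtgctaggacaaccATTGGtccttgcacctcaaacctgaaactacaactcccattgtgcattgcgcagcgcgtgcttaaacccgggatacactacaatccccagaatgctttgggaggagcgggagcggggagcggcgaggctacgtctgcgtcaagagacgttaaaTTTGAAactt
Smc2: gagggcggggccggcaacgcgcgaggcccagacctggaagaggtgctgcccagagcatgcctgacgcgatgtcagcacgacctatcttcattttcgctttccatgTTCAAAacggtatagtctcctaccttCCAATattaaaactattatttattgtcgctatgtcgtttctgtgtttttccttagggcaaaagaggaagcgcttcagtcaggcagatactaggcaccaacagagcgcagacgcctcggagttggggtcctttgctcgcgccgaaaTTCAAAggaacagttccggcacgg
Cenpa: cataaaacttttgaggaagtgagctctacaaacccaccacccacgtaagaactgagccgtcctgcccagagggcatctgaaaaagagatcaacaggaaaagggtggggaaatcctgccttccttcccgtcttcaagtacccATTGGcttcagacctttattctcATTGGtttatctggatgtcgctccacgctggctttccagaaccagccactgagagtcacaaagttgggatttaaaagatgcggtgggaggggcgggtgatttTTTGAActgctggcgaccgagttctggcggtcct

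The RefSeq table held 51 promoter windows for 47 of the 56 genes. TTTGAA was present in 39 of the 51 windows (76.5%), against 12.7% of the 13672 windows of all genes tested and 17.9% of all 32851 mouse windows. Within 50 bases of the start it was present in 68.6% of the members' windows, against 3.33% of the windows of genes tested and 5.14% of all windows. CCAAT was present in 70.6% of the members' windows, against 37.2% of those of genes tested, and 49% of the members' windows held 2 or more copies, against 13.6%. Both motifs occurred in 62.7% of the members' windows, against 5.14%. A longer motif of E2F sites, TTTGGCGC or TTTCGCGC, was found in 7.84% of the members' windows, against 1.4% of those of genes tested. Both strands were searched, a TTTGAA and a CCAAT can share an end base, and the counts describe letters in these windows, not binding. Mki67, the highest member in tumor cKO, has both of its TTTGAA copies further upstream than most members, centred 113 and 95 bases before the start. Cenpa, Aurka, Ube2c, Plk1 and Bub3, which did not follow the majority in tumor, have TTTGAA within 50 bases of the start as well. The windows of Kif18a and Pttg1, which were not called in tumor either, hold no TTTGAA.

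In tumor, these genes were higher in cKO than in WT nearly throughout. Adding the levels of all 56 genes gave 7390, 6260 and 8320 CPM (counts relative to library totals that were scaled for composition) in the tumor cKO libraries, against 2230, 3000 and 1840 CPM in the tumor WT libraries. The lowest tumor cKO library was thus well above the highest tumor WT library. The ratio of the mean sums was 3.1 over all members, and by role it ran from 1.91 for the anaphase genes to 3.75 for Mki67 and Top2a. In share of all counts, the 56 genes took 0.66% to 0.865% in tumor cKO and 0.165% to 0.286% in tumor WT.

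**Figure D1:**
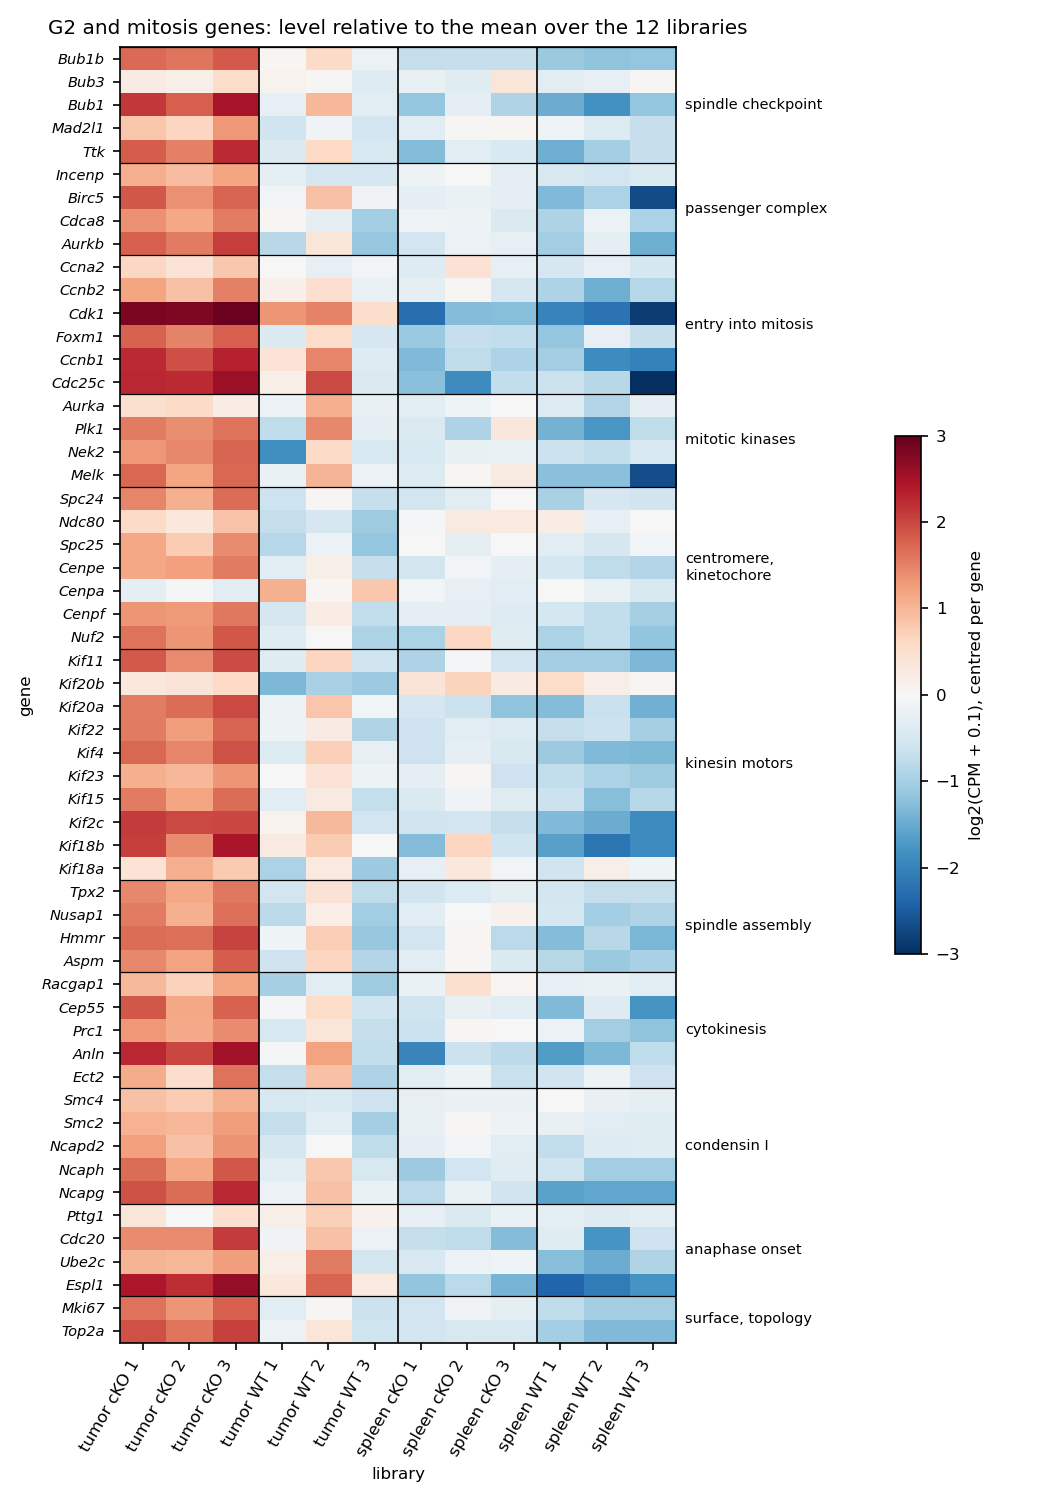
Level of each of the 56 genes (rows, grouped by role) in each library (columns), as log2(CPM + 0.1) minus the mean of the gene over the 12 libraries, with red above and blue below the mean. The 3 tumor cKO columns are red for nearly every gene, tumor WT 2 is redder than the other tumor WT libraries, and Cenpa is red in tumor WT instead.

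Gene by gene, 48 of the 56 were called higher in tumor cKO and 1 was called lower, by edgeR's quasi-likelihood test with a threshold of 0.05 on the p adjusted over all genes tested (Benjamini-Hochberg). This is read against a background in which 38% of all genes tested were called in this comparison, 16.4% higher and 21.6% lower. That background split depends on scaling, with 2761 genes higher and 3638 lower here and 3740 higher and 2767 lower when no composition factor was used, while the members then counted 50 higher and 1 lower. The median log2 change of the members was 1.58, against -0.117 over all genes tested. In 50 members every tumor cKO library was above every tumor WT library, which was so for 23% of all genes tested, and in 1 member every tumor cKO library was below, which was so for 27.3%.

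Other cell markers moved with this result. The summed level of 10 NK cell markers was 42.6 to 61.7 CPM in tumor cKO and 58.2 to 204 CPM in tumor WT, and 8 of the 10 were called lower in tumor cKO than in tumor WT. The spleen libraries held far more, with spleen cKO at 1320 to 1620 CPM and spleen WT at 1270 to 1670 CPM. The NK receptor gene Ncr1 had 0.769, 0.421 and 0.658 CPM in tumor cKO and 1.86, 1.75 and 1.63 CPM in tumor WT, and the NK receptor gene Klrb1c had 2.13, 1.38 and 1.01 CPM in tumor cKO and 8.08, 1.72 and 3.38 CPM in tumor WT. Ncr1 was at 151, 90.8 and 154 CPM in spleen cKO and 128, 155 and 204 CPM in spleen WT, so Ncr1, a defining marker of the labelled cell type, was below 2 CPM in every tumor library. Other NK cell markers were lower in tumor than in spleen but not near 0, such as the transcription factor gene Eomes with 11.6, 9.5 and 6.54 CPM in tumor cKO and 43.3, 7.98 and 36.5 CPM in tumor WT. T cell markers summed to 573 to 801 CPM in tumor cKO and 275 to 327 CPM in tumor WT, with 6 of 10 called higher and none called lower. The T cell receptor gene Cd3e had 39.5, 38.6 and 55.3 CPM in tumor cKO and 34.4, 25.9 and 23.1 CPM in tumor WT. Macrophage markers summed to 1570 to 4420 CPM in tumor cKO and 14000 to 28500 CPM in tumor WT, with 11 of 11 called lower, and their gene Lyz2 had 1330, 1230 and 522 CPM in tumor cKO and 2000, 6630 and 2050 CPM in tumor WT. Fibroblast markers were at 25 to 76 CPM in tumor cKO and 82.9 to 1640 CPM in tumor WT, with 3 of 6 called lower and the highest sum in tumor WT 2, where the collagen gene Col3a1 had 846 CPM against 97.5 and 44.1 CPM in the other tumor WT libraries. Markers of endothelial cells (2 of 5), epithelial cells (2 of 4 tested), melanocytes (1 of 1 tested), neutrophils (1 of 4 tested) and B cells (1 of 8) were also called lower in tumor cKO, 1 of 8 B cell markers was called higher, and no erythroid marker was called. Over all genes tested 21.6% were called lower and 16.4% higher, so the neutrophil and B cell counts do not stand out from that background. The erythroid gene Slc4a1 was at 0 in all 6 tumor libraries. The part of these cell types in the difference in G2 and mitosis genes was not tested.

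**Figure D2:**
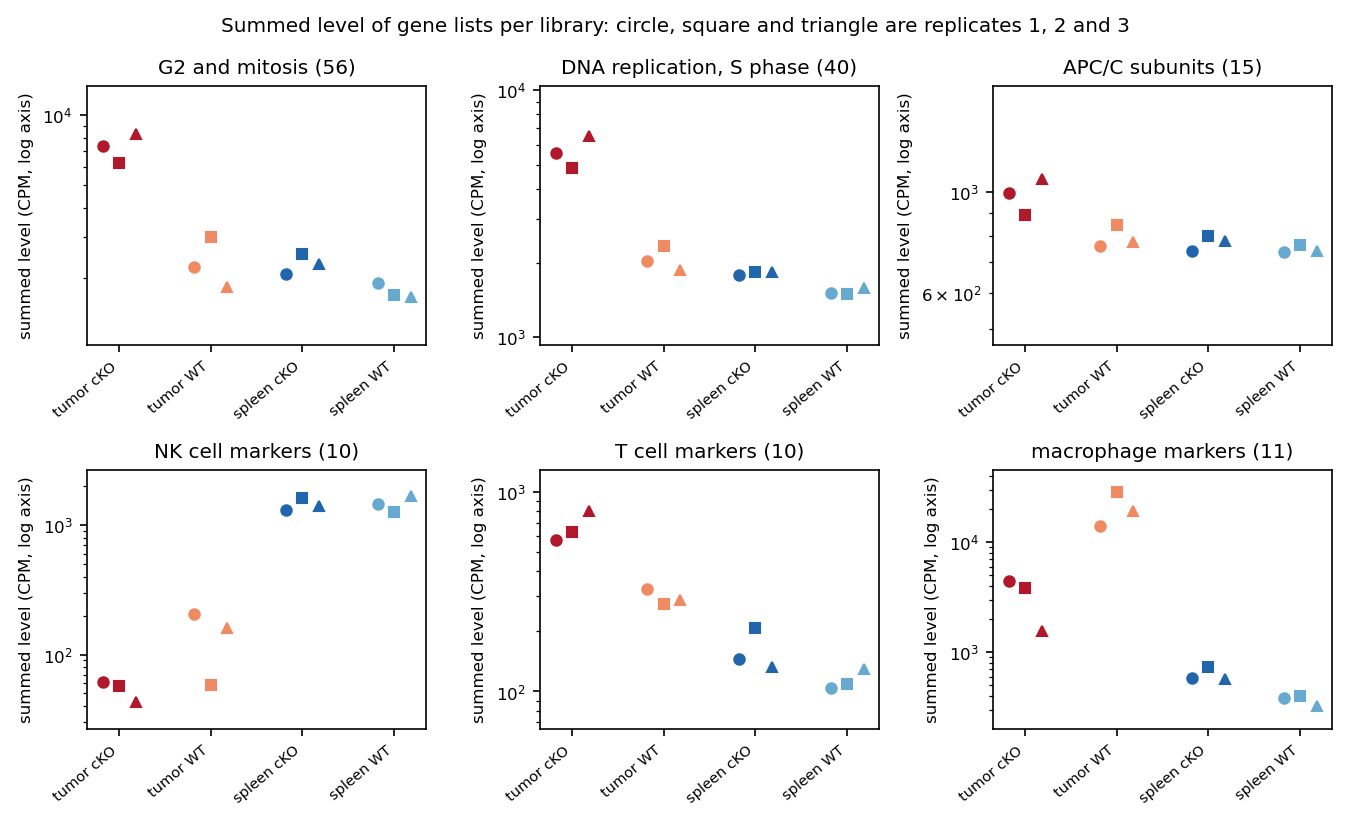
Summed CPM (log axis) of the members and of 5 other gene lists in each library, with the number of genes in brackets. In tumor cKO the members, the S phase genes and the T cell markers lie above all tumor WT libraries and the macrophage markers below them, while NK cell markers are far higher in both spleen groups than in both tumor groups.

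Ki-67, the protein of Mki67, coats mitotic chromosomes and keeps them apart, and topoisomerase II alpha, the product of Top2a, untangles sister DNA. Mki67 (chr7:135689784-135716361, minus strand of GRCm38) had 2190, 1750 and 2420 CPM in tumor cKO and 557, 715 and 447 CPM in tumor WT. Top2a (chr11:98992943-99024189, minus strand) had 895, 729 and 992 CPM in tumor cKO and 212, 307 and 157 CPM in tumor WT. For both genes the groups were far apart and did not overlap. The log2 change was 1.88 ± 0.19 (SE) for Mki67 with an adjusted p of 3.3e-05, and 1.95 ± 0.21 for Top2a with an adjusted p of 4.52e-05. Mki67 alone made up 28.0% to 29.6% of the summed level of all members in tumor cKO and 23.9% to 25.0% in tumor WT.

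**Figure D3:**
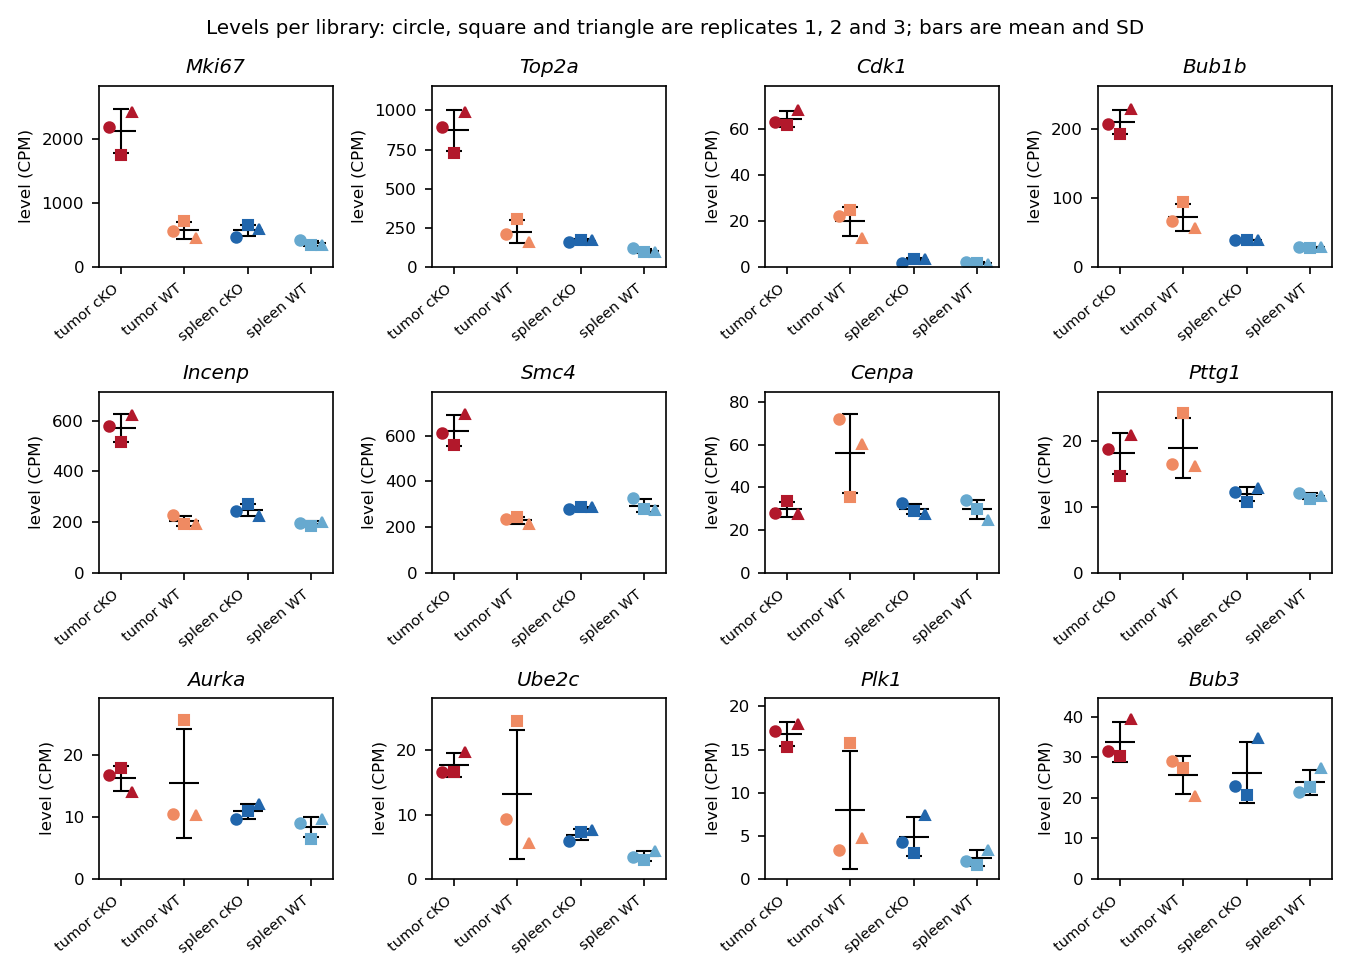
Level (CPM) of 12 members in each library, with circle, square and triangle for replicates 1, 2 and 3 and bars for the mean and SD of each group. Mki67, Top2a, Cdk1, Bub1b, Incenp and Smc4 are clearly higher in tumor cKO than in the other 3 groups, Cenpa is highest in tumor WT, and Pttg1, Aurka, Ube2c and Plk1 overlap between tumor cKO and tumor WT, with tumor WT 2 the highest tumor WT library in each.

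Entry into mitosis is driven by the kinase CDK1 with cyclins A and B, switched on by the phosphatase CDC25C, and the transcription factor FOXM1 raises the genes of this phase. Of these 6 genes 5 were called higher in tumor cKO. Cdk1 averaged 64.5 ± 3.38 CPM in tumor cKO and 19.8 ± 6.3 CPM in tumor WT (SD, n = 3 each). Its log2 change was 1.70 ± 0.27, with an adjusted p of 0.000462. Cyclin A2 changed less than the others. Its gene Ccna2 had 42.0, 36.4 and 48.0 CPM in tumor cKO and 27.0, 23.0 and 25.6 CPM in tumor WT, which did not overlap, with a log2 change of 0.74 ± 0.20. The cyclin B2 gene Ccnb2 had 19.0, 15.4 and 24.0 CPM in tumor cKO and 9.3, 11.9 and 7.23 CPM in tumor WT, again without overlap. Foxm1 averaged 44.0 ± 4.9 CPM in tumor cKO and 13.2 ± 5.85 CPM in tumor WT, and Ccnb1, the gene of cyclin B1, 19.1 ± 2.66 CPM in tumor cKO and 6.78 ± 4.37 CPM in tumor WT. Cdc25c was the member that did not pass. It had 5.25, 5.17 and 6.43 CPM in tumor cKO and 1.16, 4.26 and 0.723 CPM in tumor WT, with every tumor cKO library higher, a log2 change of 1.42 ± 0.69 and an adjusted p of 0.123.

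The spindle checkpoint holds back anaphase until all chromosomes are attached, and 4 of its 5 genes were called higher. Bub1b encodes the checkpoint protein BUBR1 (chr2:118598211-118641591, plus strand). It had 207, 193 and 228 CPM in tumor cKO and 65.9, 94.0 and 55.7 CPM in tumor WT, a separation with no overlap and a log2 change of 1.54 ± 0.16 (adjusted p 4.47e-05). The checkpoint kinase genes Bub1 and Ttk changed by log2 values of 1.88 ± 0.36 and 1.91 ± 0.38, and Mad2l1, whose product MAD2 inhibits CDC20, by 1.38 ± 0.24. Bub3, whose product brings BUB1 and BUBR1 to the kinetochore, had 31.6, 30.2 and 39.5 CPM in tumor cKO and 29.0, 27.4 and 20.4 CPM in tumor WT. These groups did not overlap but lay close together, and the log2 change of 0.40 ± 0.21 had an adjusted p of 0.152.

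The chromosomal passenger complex, which corrects faulty attachments and steers cytokinesis, was called higher in all 4 of its genes. Its kinase gene Aurkb had the largest log2 change of the 56 members in this comparison. It had 33.0, 28.1 and 40.1 CPM in tumor cKO and 5.29, 12.2 and 4.28 CPM in tumor WT, without overlap, and its log2 change was 2.20 ± 0.38 with an adjusted p of 0.000789. Incenp, the scaffold of the complex (chr19:9872297-9899533, minus strand), had 578, 514 and 622 CPM in tumor cKO and 227, 193 and 192 CPM in tumor WT. Its groups were tight and well apart, and its log2 change of 1.48 ± 0.12 had the smallest adjusted p of the members, 1.2e-05. Birc5, the gene of survivin, had 63.7, 45.3 and 58.7 CPM in tumor cKO and 16.6, 32.4 and 16.2 CPM in tumor WT, with tumor WT 2 closest to the tumor cKO libraries. Cdca8, the gene of borealin, changed by a log2 value of 1.73 ± 0.27.

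The mitotic kinases outside that complex were less uniform. Nek2, whose product splits the centrosomes, and Melk, the gene of a kinase of dividing and progenitor cells, were called higher, with log2 changes of 1.78 ± 0.42 and 1.23 ± 0.40. Plk1, the polo-like kinase that acts from entry to exit, had 17.2, 15.3 and 18 CPM in tumor cKO and 3.37, 15.8 and 4.7 CPM in tumor WT. Only tumor WT 2 reached the tumor cKO levels, and the log2 change of 1.06 ± 0.50 had an adjusted p of 0.113. Aurka, the spindle pole kinase, had 16.7, 17.9 and 14 CPM in tumor cKO and 10.5, 25.5 and 10.2 CPM in tumor WT. Here tumor WT 2 was the highest of the 6 libraries and the log2 change was 0.06 ± 0.31 (adjusted p 0.902).

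At centromere and kinetochore, where spindle fibres attach, 6 of 7 genes were called higher and Cenpa was called lower. Nuf2, a subunit of the NDC80 complex that grips microtubules, had 55.0, 44.4 and 64.0 CPM in tumor cKO and 13.7, 17.9 and 9.16 CPM in tumor WT. Its partner Ndc80 had 38.0, 31.8 and 45.9 CPM in tumor cKO and 15.5, 18 and 12.2 CPM in tumor WT, and the subunit gene Spc24 had 94.6, 71.1 and 109 CPM in tumor cKO and 22, 34.7 and 21.1 CPM in tumor WT. None of the 3 overlapped between the groups, and their log2 changes were 1.99 ± 0.35, 1.34 ± 0.20 and 1.82 ± 0.23. The fourth subunit gene, Spc25, changed by 1.81 ± 0.24 on the log2 scale, and Cenpe and Cenpf, genes of large outer kinetochore proteins, by 1.57 ± 0.21 and 1.67 ± 0.22. Cenpa encodes the histone H3 variant that marks the centromere (chr5:30666777-30674830, plus strand). It had 28.1, 33.5 and 27.5 CPM in tumor cKO and 72.1, 35.7 and 60.2 CPM in tumor WT. All tumor cKO libraries were below all tumor WT libraries, with tumor WT 2 nearly level with tumor cKO 2. The log2 change was -0.91 ± 0.22, with an adjusted p of 0.00563.

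Kinesin motors move chromosomes and slide spindle fibres, and 9 of the 10 listed were called higher. Kif11, the motor that pushes spindle poles apart, had 155, 115 and 168 CPM in tumor cKO and 33.4, 66.8 and 28.4 CPM in tumor WT, without overlap. Kif20b, a motor of late cytokinesis, had 66.9, 69.6 and 80.6 CPM in tumor cKO and 21.0, 27.4 and 25.1 CPM in tumor WT, also without overlap. Their log2 changes were 1.76 ± 0.31 and 1.56 ± 0.17. The other 7 motors called changed by log2 values from 1.03 ± 0.19 for Kif23, a motor of the central spindle, to 1.73 ± 0.24 for Kif22, which pushes chromosome arms outward. Kif18a, which dampens chromosome swings, was the lowest member per length and rested on 52, 60 and 76 counts in tumor cKO and 14, 73 and 12 counts in tumor WT. Its levels were 2.22, 3.61 and 2.94 CPM in tumor cKO and 0.814, 2.06 and 0.723 CPM in tumor WT. The libraries did not overlap, but the adjusted p of its log2 change of 1.25 ± 0.49 was 0.0591.

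Spindle assembly, cytokinesis and condensin genes were called higher without exception, 4 of 4, 5 of 5 and 5 of 5. Tpx2, which seeds spindle fibres around chromosomes, had 144, 118 and 158 CPM in tumor cKO and 36.3, 71.3 and 31.3 CPM in tumor WT. Nusap1, a microtubule bundling protein, had 80.4, 57.0 and 86.4 CPM in tumor cKO and 15.9, 31.3 and 13.3 CPM in tumor WT. In both, tumor WT 2 was the highest tumor WT library and still below every tumor cKO library. Of the cytokinesis genes, Racgap1, part of the centralspindlin complex, had 105, 86.3 and 121 CPM in tumor cKO and 26.8, 43.0 and 25.6 CPM in tumor WT. Cep55, which recruits the machinery that cuts the bridge between daughter cells, had 40.9, 25.4 and 38.8 CPM in tumor cKO and 10.7, 16.6 and 7.35 CPM in tumor WT. Both were free of overlap, and Ect2, which activates the contractile ring, was the cytokinesis gene that did overlap. It had 12.1, 8.12 and 17.5 CPM in tumor cKO and 3.37, 10.3 and 2.89 CPM in tumor WT, and its adjusted p of 0.0499 was the largest of the genes called.

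Condensin compacts chromosomes, and its 2 core ATPase genes were among the most abundant members. Smc4 (chr3:69004738-69034623, plus strand) had 610, 559 and 695 CPM in tumor cKO and 235, 243 and 214 CPM in tumor WT. Smc2 (chr4:52439243-52488260, plus strand) had 192, 185 and 221 CPM in tumor cKO and 56.1, 74.7 and 45.5 CPM in tumor WT. The groups were far apart in both, with log2 changes of 1.43 ± 0.11 and 1.76 ± 0.16 and adjusted p-values of 1.29e-05 and 2.5e-05. The non-SMC subunit genes Ncapg, Ncapd2 and Ncaph changed by log2 values of 1.70 ± 0.29, 1.56 ± 0.19 and 1.46 ± 0.33.

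Genes of anaphase onset divided evenly. Cdc20, the activator of the anaphase-promoting complex (APC/C), had 22.2, 22 and 35.6 CPM in tumor cKO and 7.56, 15.1 and 7.23 CPM in tumor WT, without overlap, and changed by a log2 value of 1.40 ± 0.37. Espl1, the gene of separase, the protease that opens cohesin, changed by 1.47 ± 0.34. Ube2c, the ubiquitin-conjugating partner of the complex, had 16.7, 16.6 and 19.8 CPM in tumor cKO and 9.36, 24.5 and 5.54 CPM in tumor WT, and did not pass with a log2 change of 0.42 ± 0.40. Pttg1, the gene of securin, which keeps separase inactive, had 18.8, 14.7 and 20.9 CPM in tumor cKO and 16.6, 24.3 and 16.2 CPM in tumor WT. In Ube2c and Pttg1 the highest of the 6 libraries was tumor WT 2, and the log2 change of Pttg1 was -0.07 ± 0.20 with an adjusted p of 0.807.

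The library tumor WT 2 stood apart from its group in these genes. It was above the group mean for 53 of 56 members, by a median of 0.61 on the log2 scale, and tumor WT 3 was above it for 4. Among the tumor cKO libraries, tumor cKO 3 was above its group mean for 53 members and tumor cKO 2 for 3. Without tumor WT 2, 53 members were called higher and 1 lower, and the median log2 change was 2. Of all 17310 genes tested in that fit, 3045 were called higher and 3678 lower, with a median of -0.075. Of the members not called, Cdc25c, Kif18a, Ube2c, Aurka and Plk1 then passed, with adjusted p-values of 0.00813, 0.0104, 0.00271, 0.0366 and 0.00075, and only Bub3 and Pttg1 did not. Without tumor WT 1 the log2 change of Aurka was -0.15, without tumor WT 3 it was -0.14, and without tumor cKO 2 it was -0.01, none of them called. Melk was not called without tumor cKO 1, tumor cKO 3, tumor WT 1 or tumor WT 3, with adjusted p-values of 0.0758, 0.0855, 0.095 and 0.0889. Ect2 was not called when any of tumor cKO 1, tumor cKO 3, tumor WT 1, tumor WT 3 or a single spleen library was left out, with adjusted p-values from 0.0593 to 0.204. The order of genes by level per length was less alike between the tumor groups than between the spleen groups. In RPKM, which scales reads to gene length and library total, Mki67, Incenp, Smc4 and Top2a led in tumor cKO with means of 219, 185, 124 and 101, and Incenp, Mki67, Smc4 and Top2a led in tumor WT with 58.3, 52.6, 40.7 and 23.2. Across the 56 genes, which are not independent replicates, the rank correlation of mean RPKM between tumor cKO and tumor WT was 0.86, and between spleen cKO and spleen WT it was 0.97. Between tumor WT and spleen WT it was 0.87, and between tumor cKO and spleen cKO 0.81. The points of each correlation share the 2 groups' libraries and the listed gene lengths.

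**Figure D4:**
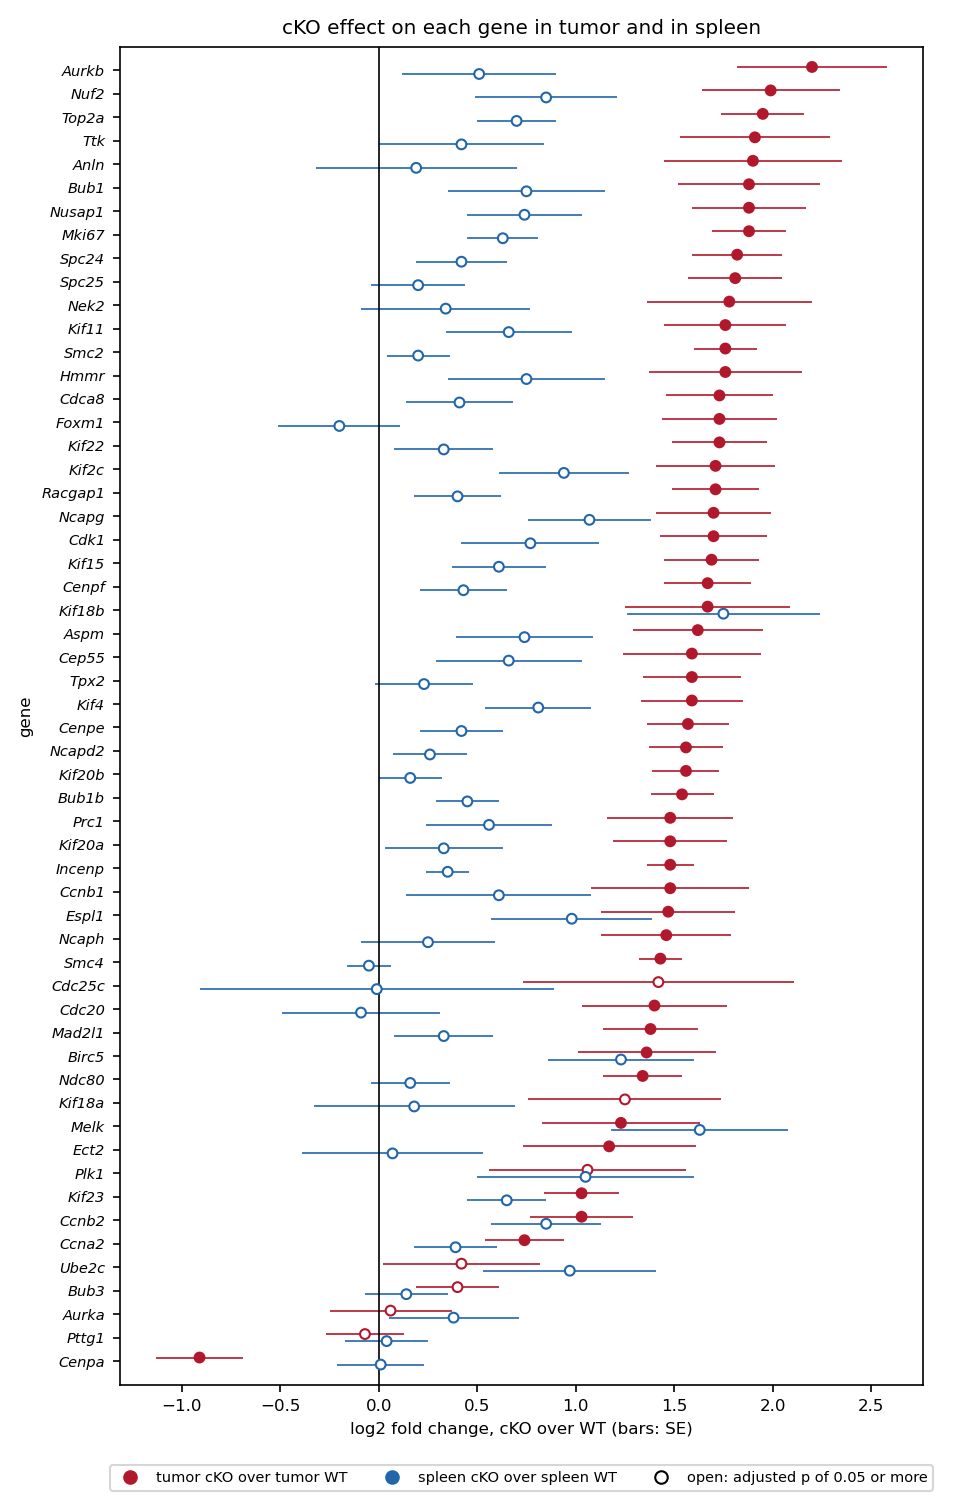
Fitted log2 fold change of cKO over WT with its SE for each of the 56 genes, in tumor (red) and in spleen (blue), with open circles where the adjusted p was 0.05 or more. Most red points lie between 1 and 2 and are filled, all blue points are open, and most of them lie between 0 and 1.

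In spleen, no member was called between cKO and WT by edgeR, and none was called by DESeq2 or limma-trend. The background here is that 5 of 16831 genes, or 0.0297%, were called at all by edgeR. Of the same genes DESeq2 called 40 higher and 6 lower, and limma-trend 9 higher and 1 lower. The changes that did not pass leaned one way, since 52 of the 56 fitted log2 changes were positive with a median of 0.42, against a median of 0 over all genes tested. At an unadjusted p under 0.05 there were 18 members and 784 of all genes tested, and in 25 members every spleen cKO library was above every spleen WT library, which was so for 5.94% of all genes tested. No member had every spleen cKO library below, which was so for 5.43%. The smallest adjusted p was 0.835. The summed level of all 56 genes was 2080, 2540 and 2300 CPM in spleen cKO and 1900, 1700 and 1660 CPM in spleen WT, without overlap and with a ratio of means of 1.32.

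Mki67 had 472, 649 and 584 CPM in spleen cKO and 414, 346 and 343 CPM in spleen WT, and Top2a had 159, 172 and 172 CPM in spleen cKO and 118, 95.9 and 95.6 CPM in spleen WT. Every spleen cKO library was above every spleen WT library in both. The log2 changes were 0.63 ± 0.18 and 0.70 ± 0.20, each with an adjusted p of 0.835. Kif18b, a motor that shortens astral fibres, had 1.76, 7.02 and 2.91 CPM in spleen cKO and 1.37, 0.904 and 1.13 CPM in spleen WT, and Melk had 3.08, 4.21 and 4.97 CPM in spleen cKO and 1.67, 1.66 and 0.567 CPM in spleen WT. These 2 had the largest spleen log2 changes of the members, 1.75 ± 0.49 and 1.63 ± 0.45, and rested on few reads. Birc5 had 14.5, 15.2 and 14.3 CPM in spleen cKO and 6.9, 9.04 and 2.65 CPM in spleen WT, and Incenp had 245, 271 and 225 CPM in spleen cKO and 197, 184 and 201 CPM in spleen WT. Smc4 did not lean that way, with 279, 286 and 288 CPM in spleen cKO and 329, 281 and 273 CPM in spleen WT, which overlapped. Beside these values, the 3 spleen cKO libraries held summed macrophage markers of 572 to 740 CPM, and the 3 spleen WT libraries 321 to 401 CPM. For T cell markers the spleen cKO range was 133 to 208 CPM and the spleen WT range 104 to 129 CPM. NK cell markers overlapped (spleen cKO 1320 to 1620 CPM, spleen WT 1270 to 1670 CPM), and so did B cell markers (spleen cKO 2170 to 2610 CPM, spleen WT 2490 to 2810 CPM), among them Pax5 (spleen cKO 465 to 564 CPM, spleen WT 491 to 648 CPM). Erythroid markers summed to 27.9, 43 and 32.9 CPM in spleen cKO, against 15.2, 26.1 and 9.83 CPM in spleen WT, without overlap, and all 4 tested had a positive log2 change with a median of 1.12. No marker of any of the 10 lists was called in spleen, and their part was not tested. Members called depended on the fit, with Top2a, Kif18b, Birc5, Nuf2, Melk, Ncapg and Mki67 called without the filter on low counts, and Top2a and Mki67 when the spleen libraries were fitted alone. The background rose as well. Without the filter 194 of 33100 genes were called higher and 36 lower, and with the spleen libraries alone 29 of 14113 higher and 2 lower.

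Between tissues, the cKO libraries differed more than the WT libraries in the number of members called. Tumor cKO against spleen cKO had 50 members called higher and none lower, where 60.5% of all genes tested were called, 31.7% higher and 28.8% lower. Tumor WT against spleen WT had 31 called higher and 3 lower, where 62% of all genes tested were called, 33.9% higher and 28.1% lower. Every tumor library was above every spleen library in 52 members in cKO and in 26 in WT, which was so for 36.6% and 36.5% of all genes tested, and below in 3 members in WT, which was so for 30.9%. The median log2 change was 1.76 in cKO and 0.79 in WT, against medians over all genes tested of 0.071 and 0.116. Without tumor WT 2, the WT count was 21 higher and 6 lower. The WT median was then 0.44, against 0.078 over all genes tested in that fit, whose called share is not given here. By limma-trend on RPKM, Hmmr, Aspm, Ncaph, Aurka, Cdc20, Mki67 (adjusted p 0.0558), Anln, Ttk and Kif15 lost the call in WT. Racgap1 and Smc2 were called lower in tumor WT by that fit. With the WT groups fitted alone, Cdc25c, Cep55, Aspm, Aurka, Cdc20, Ttk and Kif15 lost the call. Markers of most other cell types moved with both tissue comparisons. All 10 NK cell and all 8 B cell markers were called lower in tumor in both. In tumor cKO against spleen cKO, 8 of 10 T cell, 9 of 11 macrophage, 6 of 6 fibroblast, 4 of 4 neutrophil and 3 of 5 endothelial markers were called higher. In tumor WT against spleen WT, 7 of 10 T cell, 11 of 11 macrophage, 6 of 6 fibroblast, 4 of 4 neutrophil and 4 of 5 endothelial markers were called higher. Of the 4 erythroid markers tested, 3 were called lower in tumor cKO and 1 in tumor WT, and 1 of 5 endothelial markers was called lower in both. Of the 4 epithelial markers, 1 was called higher and 1 lower in tumor cKO and 2 higher in tumor WT, and the melanocyte marker tested was called lower in tumor cKO. The part of these cell types was not tested.

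Cdk1 had the largest tissue difference. It had 63.1, 62.0 and 68.3 CPM in tumor cKO and 1.76, 3.51 and 3.55 CPM in spleen cKO, and 22, 24.7 and 12.7 CPM in tumor WT against 2.12, 1.81 and 1.13 CPM in spleen WT. All tumor libraries were above all spleen libraries, with log2 changes of 4.46 ± 0.32 in cKO and 3.53 ± 0.32 in WT. Espl1 followed in WT with a log2 change of 3.09 ± 0.39 and was at 3.58 ± 0.38 in cKO. Cdc25c had 5, 2 and 8 counts in spleen cKO and 8, 7 and 0 counts in spleen WT, so its tissue comparison rested on few spleen reads. The anaphase genes Ube2c and Pttg1, which did not pass between tumor cKO and tumor WT, were called higher in tumor than in spleen in both genotypes, with log2 changes of 1.37 ± 0.42 in cKO and 1.92 ± 0.44 in WT for Ube2c and of 0.59 ± 0.20 in cKO and 0.71 ± 0.20 in WT for Pttg1. In cKO, Ube2c was not called without spleen cKO 1 (adjusted p 0.0501), and Pttg1 was not called without tumor cKO 1, tumor cKO 3, spleen cKO 1 or spleen cKO 2, with adjusted p-values from 0.0508 to 0.0829. Per length, Cdk1 ranked 13th of the members in tumor cKO at 19.5 RPKM and 21st in tumor WT at 5.3 RPKM, against 49th in spleen cKO at 0.88 RPKM and 47th in spleen WT at 0.498 RPKM.

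Some members were not higher in tumor. Kif20b had 21.0, 27.4 and 25.1 CPM in tumor WT and 78.4, 60.9 and 55.7 CPM in spleen WT, and Ndc80 had 15.5, 18 and 12.2 CPM in tumor WT and 29.9, 21.6 and 25.7 CPM in spleen WT. In both genes all tumor WT libraries were the lower ones, and the log2 changes were -1.41 ± 0.17 and -0.75 ± 0.20, both called. Smc4 was also called lower in tumor WT, with a log2 change of -0.35 ± 0.11 and an adjusted p of 0.0155, though not without tumor WT 3 (0.0849) or spleen WT 1 (0.078). In cKO, Kif20b was at 66.9, 69.6 and 80.6 CPM in tumor and 70.2, 84.6 and 63.4 CPM in spleen, which overlapped and was not called. Cenpa was higher in tumor WT than in spleen WT by a log2 value of 0.91 ± 0.22. It had 28.1, 33.5 and 27.5 CPM in tumor cKO, 32.7, 29.2 and 27.8 CPM in spleen cKO and 34.1, 30.1 and 24.9 CPM in spleen WT, which overlapped. Of its tumor WT libraries, tumor WT 1 at 72.1 CPM and tumor WT 3 at 60.2 CPM stood apart from these, while tumor WT 2 at 35.7 CPM lay just above spleen WT 1.

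The cKO effect differed between the tissues for 21 members, all with the higher log2 change in tumor, tested as the difference of the 2 effects (tumor minus spleen) in the same fit. Over all genes tested 18.3% were called for this difference, 7.68% in that direction and 10.6% in the other. The median of the difference was 1.12 over the members and -0.099 over all genes tested. The genes included both topology members, 5 of 7 centromere and kinetochore genes, 3 of 5 condensin genes, 3 of 4 passenger complex genes and 3 of 10 kinesins, and none of the 4 mitotic kinases or the 4 anaphase genes. Foxm1 had the largest difference at 1.93 ± 0.42, with 46.7, 38.4 and 47.0 CPM in tumor cKO and 10, 19.9 and 9.58 CPM in tumor WT, against 6.16, 8.32 and 8.03 CPM in spleen cKO and 5.99, 11.4 and 8.32 CPM in spleen WT. Its tumor groups were apart and its spleen groups overlapped. Smc4 had the smallest adjusted p, 0.000597, with a difference of 1.48 ± 0.16. Without tumor WT 2 39 members were called with a positive difference and 1, Cenpa, with a negative difference of -1.16, its log2 change in tumor then being -1.15. The median difference was then 1.47, against -0.077 over all genes tested in that fit, whose called share is not given here. With all libraries kept, the difference of Cenpa was -0.92 ± 0.31 and was not called (adjusted p 0.0556). It was called with all libraries by DESeq2 (adjusted p 0.0375) and by edgeR without the filter on low counts (0.0179). Of the 21 genes, Aurkb, Cdca8, Kif15, Mad2l1 and Tpx2 were not called when certain single libraries were left out. Markers moved with this difference as well. All 11 macrophage markers and 2 of 10 NK cell markers were called with a negative signed difference. The median log2 cKO change of the macrophage markers was -2.84 in tumor and 1.33 in spleen, and that of the NK cell markers was -1.52 in tumor and -0.06 in spleen. Of the 10 T cell markers, 1 was called with a positive difference, and the part of these cell types was not tested. In the other 35 members the difference was not called, which does not show that the tissues respond alike.

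Other genes of the cell cycle were read beside the members. Of 40 genes of DNA replication and S phase, 39 were called higher in tumor cKO than in tumor WT and none lower, with a median log2 change of 1.46. Lig1, the ligase that joins newly made DNA, had 621, 549 and 639 CPM in tumor cKO and 173, 127 and 151 CPM in tumor WT, and Mcm3, a subunit of the replicative helicase, 388, 351 and 449 CPM in tumor cKO and 143, 192 and 132 CPM in tumor WT. Slbp, which binds histone mRNA, changed less, with a log2 value of 0.51 ± 0.12. The summed level of the members divided by that of the S phase genes was 1.28 to 1.33 in tumor cKO and 0.986 to 1.27 in tumor WT, and 1.16 to 1.39 in spleen cKO and 1.05 to 1.26 in spleen WT. Every tumor cKO library was above every tumor WT library in this ratio, with tumor WT 2 close at 1.27, and the spleen groups overlapped. Without Mki67 among the members the tumor groups overlapped too, at 0.909 to 0.934 in tumor cKO and 0.747 to 0.968 in tumor WT.

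Of 54 mitosis genes outside the members, 40 were called higher in tumor cKO and none lower, with a median log2 change of 1.39. Hjurp, the chaperone that loads the CENP-A protein, had 246, 220 and 310 CPM in tumor cKO and 112, 104 and 101 CPM in tumor WT, and its log2 change of 1.29 ± 0.13 was opposite in sign to that of Cenpa. Arhgap11a, a gene of cytokinesis, changed by 1.43 ± 0.15, and Ncaph2, a subunit of condensin II, by 0.25 ± 0.10 without being called. The APC/C itself was mixed, with 5 of 15 subunit genes called higher, 2 called lower and a median of 0.19. Anapc5 changed by 0.76 ± 0.14, and Anapc15, which helps it turn over the checkpoint complex, by 0.54 ± 0.16, while its subunit genes Anapc2 and Anapc11 were lower by log2 changes of -0.37 ± 0.10 and -0.99 ± 0.28. Of 10 cohesin genes, 6 were called higher and 1 lower, with Smc1a at 0.94 ± 0.13, Rad21 at 0.58 ± 0.10, Smc3 not called at 0.32 ± 0.15, and the loader gene Mau2 at -0.43 ± 0.13.

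Regulators upstream of these genes were mixed too. Of 7 G1 cyclin and CDK genes, 6 were called higher in tumor cKO and none lower, with log2 changes of 1.42 ± 0.16 for the kinase gene Cdk6, 1.06 ± 0.15 for Ccnd2 and 1.04 ± 0.22 for Ccnd3. Of 6 CDK inhibitor genes tested, 1 was called higher and 1 lower, with Cdkn1b not called at 0.23 ± 0.11 and Cdkn2d not called at -0.22 ± 0.23. The gene called lower was Cdkn1a, which encodes p21, a target of p53. It had 96.2, 89.5 and 70.6 CPM in tumor cKO and 191, 173 and 180 CPM in tumor WT, which did not overlap, and its log2 change was -1.09 ± 0.20. Of 19 genes of E2F factors, pocket proteins and MuvB, 12 were called higher and 2 lower. E2f4 and Rbbp4, genes of DREAM components, changed by 0.71 ± 0.12 and 0.36 ± 0.11, Rbl2, the gene of p130, was not called at -0.15 ± 0.19, and Lin54 and E2f5 were lower by log2 changes of -0.57 ± 0.14 and -1.28 ± 0.39. LIN54 is the MuvB subunit that binds the CHR.

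Reads of 13 of the 56 genes could be mixed with those of a gene on the opposite strand that shares exon bases, since the strand setting of the counting is not given in the sources used here. These are Cdca8, Ccna2, Plk1, Nek2, Kif18a, Kif20a, Kif22, Kif4, Nusap1, Prc1, Ncapg, Cdc20 and Ube2c, and their levels are less certain for it. Foxm1, Ncapd2 and Top2a share exon bases with gene rows on the same strand, which a strand setting does not separate, so the same holds for them. The other 40 members share no exon bases with another row. All 56 rows overlapped the position of their gene in the annotation and all are annotated as protein coding.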

How the data were processed

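RNA was extracted with TRIzol and sequenced on an Illumina NovaSeq, per the labels' protocols. Alignment used TopHat2 version 2.0.6 on genome build mm10, per the submitters' processing notes, while for the counting program and its strand setting the sources used here give nothing. The files that the authors deposited hold, for each of 33100 gene rows and 12 libraries, raw counts and RPKM values. The deposited RPKM values equalled the counts over gene length and library total for 100% of values within a relative tolerance of 0.001. Low counts were mostly even: 68.8% to 73.3% of the values from 1 to 49 in each library. If both reads of a pair were counted, fewer fragments than the printed count stand behind a level, which the sources used here do not settle.

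Counts were tested with edgeR 4.0.16 (quasi-likelihood, robust, two-sided) in R 4.3.3, with 1 mean per group over all 12 libraries, TMM factors and filterByExpr, and p-values were adjusted by Benjamini-Hochberg over the 16831 genes tested and called under 0.05. The SE of a log2 change is its size divided by the square root of F. Alternatives used DESeq2 1.42.0, limma 3.58.1 on log2(RPKM + 0.1), other factors and filters, a replicate block and left-out libraries. RPKM served to compare levels between genes. Calculations were tested on simulated data. Intervals other than SE and SD were not computed, and the depth behind a level is its read count.

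The members and lists were chosen with earlier results of these data known, and tests were not repeated over them alone. Values in every library are given for the 2 members with the highest mean RPKM in each role group, the 3 largest and 3 smallest tumor changes and every member not called in tumor; from other lists, the 3 genes with the highest mean level and up to 3 called the other way are named. Promoters are RefSeq windows on GRCm38.p6, matched by symbol. The targeted gene was not analysed here.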

Additional observations from a re-analysis of the deposited data

Results flagged for a closer look

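The cKO effect differed between tumor and spleen in 21 of the 56 genes, by edgeR's quasi-likelihood test of the difference itself at a Benjamini-Hochberg adjusted p under 0.05. The values here are the log2 cKO change in tumor minus that in spleen. Among the genes of entry, checkpoint and passenger complex, the difference was 1.93 for Foxm1, 1.69 for Aurkb, 1.32 for Cdca8, 1.14 for Incenp, 1.09 for Bub1b and 1.05 for Mad2l1. At centromere and kinetochore it was 1.61 for Spc25, 1.40 for Spc24, 1.24 for Cenpf, 1.17 for Ndc80 and 1.15 for Cenpe. The condensin genes Smc2, Smc4 and Ncapd2 differed by 1.56, 1.48 and 1.29, and Mki67 and Top2a by 1.26 and 1.25. For the motors Kif22, Kif20b and Kif15 it was 1.40, 1.40 and 1.08, for the spindle gene Tpx2 1.36 and for the cytokinesis gene Racgap1 1.31. With single libraries left out, Aurkb lost the call in 10 of the 12 fits, Mad2l1 in 9, Kif15 in 9, Cdca8 in 5 and Tpx2 in 2.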

How the results depend on the processing

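Between tumor cKO and tumor WT, 47 to 54 members were called over the settings with at least 2 libraries in each group. The members' median log2 change ran from 1.41 to 2. Of all genes tested in these settings, 1887 to 3921 were called higher and 2523 to 4022 lower. With all libraries kept, Kif18a passed by DESeq2, by limma-trend, with no composition factor and with a replicate block. Its adjusted p-values were then 0.03, 0.0279, 0.0397 and 0.0343. Plk1 (0.0309 and 0.00571) and Cdc25c (0.0383 and 0.0494) passed by limma-trend and without the filter on low counts. Bub3 passed with no composition factor (0.0464). Ube2c, Aurka and Pttg1 passed in none of these fits, and Ect2 lost its call with the tumor groups fitted alone (0.121). With no composition factor the median over all genes moved from -0.117 to 0.056, and the members lay 1.69 above it, against 1.70 with TMM factors. The sign of Pttg1 was not stable: its tumor log2 change was 0.10 with no composition factor, 0.12 by limma-trend on RPKM, 0.04 without both tumor WT 2 and tumor cKO 3, and 0.15 without both tumor WT 2 and tumor WT 3, an alternative chosen after seeing the data. With 1 library left out it ran from -0.18 (tumor cKO 3) to 0.15 (tumor WT 2), with 0.06 without tumor cKO 2, and Aurka ran from -0.15 (tumor WT 1) to 0.64 (tumor WT 2), with -0.14 without tumor WT 3 and -0.01 without tumor cKO 2; the cause was not tested. In spleen, the count of members called was 7 with no filter, where 194 of all 33100 genes tested were called higher and 36 lower. It was 2 with the 2 groups alone, where 29 of 14113 genes were called higher and 2 lower. Without both tumor WT 2 and tumor cKO 3 it was 1, and the count over all genes in that fit is not given here. For the difference between tissues the count was 32 with no filter and 39 without both tumor WT 2 and tumor cKO 3. The members' median was 1.13 and 1.35 in these 2 fits, against -0.311 and -0.082 over all genes. With 1 library left out the count was 16 to 40. The members' median then ran from 0.94 to 1.47, against -0.137 to -0.077 over all genes. How many of all genes were called for the difference in these fits is not given here. The difference could not be fitted with 2 groups alone. Deviations from the group means correlated between -0.088 and 0.111 for same-numbered libraries of compared groups, and between -0.08 and 0.116 for differently numbered ones. Such correlations cannot show whether same-numbered libraries share a mouse or a day, and the labels do not say. With a replicate block the members called were 50 in tumor, 0 in spleen, 32 between the WT tissues, 50 between the cKO tissues and 19 for the difference. Of all 16831 genes, that fit called 2601 higher and 3368 lower in tumor, and 2 higher and 0 lower in spleen. For the other 3 comparisons the members' medians were 0.74, 1.8 and 1.18, against 0.114, 0.083 and -0.091 over all genes. Depth limits the precision of low levels such as those of Cdc25c and Kif18a, with as few as 12 counts in a tumor WT library, though both passed without tumor WT 2, the deepest library.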
